A study of Mus musculus with 3 samples.

Results

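Vesicle and protein transport genes of the mouse were taken by their symbols, as the protein-coding genes of the GENCODE M1 annotation whose symbols begin with Vps, Snx, Sec, Rab or Arf and a digit, or with Cop and one of the letters a, b, e, g or z. This rule found 170 of 22225 symbols, namely 67 Rab, 30 Vps, 30 Snx, 29 Sec, 8 Cop and 6 Arf genes. Binding of the nuclear receptors RARα and RXRα within 10 kb of their gene starts was described. A few of the 170 genes do other work, as Sec1 encodes a fucosyltransferase and Vps72 a subunit of chromatin remodeling complexes, and they were kept because the symbol alone set the list. Snx29 and Vps13d each have more than 1 gene record in the annotation, so that 172 gene records entered, and the windows of both records were joined.

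Proteins leave the endoplasmic reticulum in vesicles coated with COPII, which Sec23, Sec24, Sec13 and Sec31 proteins build on sites marked by Sec16, while COPI coats, recruited by Arf GTPases, carry proteins back and within the Golgi. Rab GTPases mark each membrane and recruit tethers and motors, Vps proteins form the complexes that sort cargo at endosomes and lysosomes (retromer, ESCRT, HOPS, CORVET and GARP), and sorting nexins (Snx) bind phosphoinositides on endosomes and bend the membrane. Hepatocytes use these pathways to secrete lipoproteins, albumin and bile. RARα is a receptor for retinoic acid, and RXRα is the partner with which RARα and other nuclear receptors form dimers on DNA.

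The libraries came from the liver of male wild type C57BL/6 mice that were 3 months old, with no treatment named in the labels. There were 3 libraries, 1 from chromatin precipitated with an RXRα antibody, 1 from chromatin precipitated with a RARα antibody and 1 from input chromatin, so that each value below is from 1 library and has no replicate error. Whole liver was used, and sites bound in fewer cells cannot be told apart from sites bound more weakly in each cell. The RXRα and input tracks held 9.99994 M and 9.99929 M reads as coverage in bins of 32 bp, and the RARα list held 143280 peaks with scores from 5 to 382 and no read counts. As a check of the tissue, 7 of 7 hepatocyte genes, among them Alb and Apoa1, had co-localized binding of RARα and RXRα, whereas of 6 genes of neurons, muscle and lymphocytes 1 had a RARα peak and 0 had an RXRα region.

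A gene counted as bound by RARα when a RARα peak with a score above 20 had its summit within 10 kb of the gene start. For RXRα, a region was a run of bins with a signal 20 times or more above input, taken as the mean of 0.603 reads per bin wherever the bin itself held less. The RXRα ratio of a region is this quotient in its highest bin, and at mean input a bin needed 13 RXRα reads to pass. RARα and RXRα were called co-localized when a RARα peak and an RXRα region overlapped by at least 25% of the narrower interval. Below, a peak of any score is said to overlap a region only if it met this share. Distances are from the gene start to the summit or the region midpoint, with a minus sign upstream, and coordinates are those of NCBI37/mm9.

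RARα bound most of the transport genes, and at most of these the peak lay at the gene start. A RARα peak was present at 144 of the 170 genes (84.7%), compared to 52.3% of all protein-coding genes. Within 1 kb of the start it was present at 131 genes (77.1%), compared to 41% of all genes. RXRα regions were found at 93 genes (54.7%), compared to 39.9% of all genes. Within 1 kb, 53 genes (31.2%) had one, compared to 21.6%. The shares for RARα and RXRα are not on the same scale, as they come from unlike rules and libraries of unlike depth. A lower RXRα threshold gave more genes, as given at the end. A RARα peak that co-localized with RXRα was present at 59 genes (34.7%), compared to 23.6% of all genes. Among the genes with a RARα peak, 41.0% of the transport genes had a co-localized peak, near the 45.1% of all RARα genes. In 2 of 16 settings this share was above that of all RARα genes.

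The starts of transport genes were richer in CpG than those of other genes, and the shares with RXRα were therefore also compared at CpG-rich and CpG-poor starts. The median ratio of observed to expected CpG in the 500 bp on either side of the start was 0.737 for the transport genes and 0.549 for all genes, and 126 of the transport genes (74.1%) but 45.7% of all genes were at 0.6 or above. Among genes at or above 0.6, RXRα regions were as common at transport genes (51.6%) as at all genes (52.4%), and so were co-localized peaks, with 35.7% and 34.6%. RARα peaks remained more common at transport genes there, with 89.7% compared to 77.5%. Below 0.6 there were 44 transport genes, of which 31 (70.5%) had a RARα peak, 28 (63.6%) an RXRα region and 14 (31.8%) a co-localized peak, compared to 31.1%, 29.4% and 14.3% of all genes in that range. The higher share of transport genes with RXRα was thus seen at CpG-poor and not at CpG-rich starts, while that with RARα was seen at both. The median gene length was 26668.5 bp for the transport genes and 15475 bp for all genes, and its part in these counts was not tested. Expression in liver was not analysed here.

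Levels at the bound genes were close to those of all bound genes, while the RXRα signal around the start was higher. The highest RARα score of a bound gene had a median of 54 for transport genes and 48 for all genes. The highest RXRα ratio of genes with a region had a median of 38.2 for transport genes and 41.5 for all genes. Reads within 1 kb of the start, which need no threshold, gave a median of RXRα over input (1 read added to each) of 2.40 for transport genes, compared to 1.67 for all genes. At -128 bp from the start, the mean signal over the 170 genes was 7.78 reads per bin for RXRα and 1.80 for input, compared to 5.55 and 1.24 over all genes. Input at the start was also above the genome mean of 0.603 reads per bin, in the transport genes more than in all genes.

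**Figure D1:**
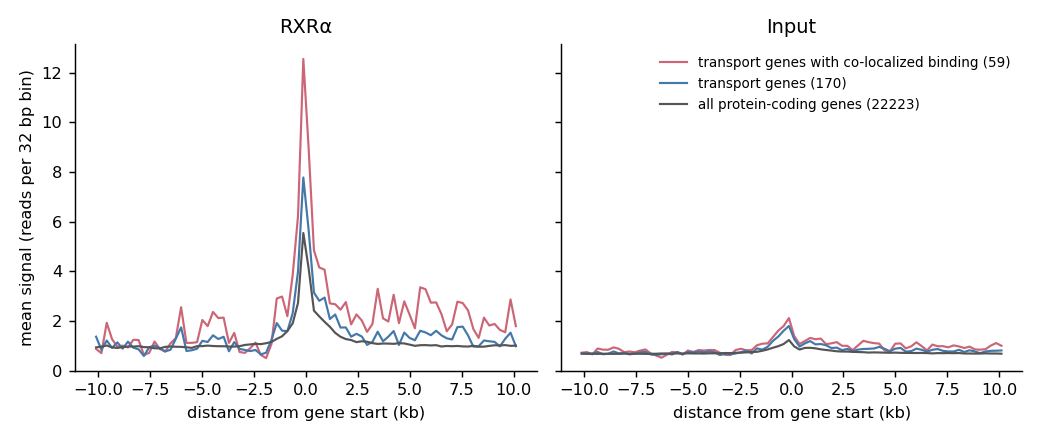
Mean signal in reads per bin of 32 bp (vertical axis, bins capped at 100 reads) against the distance from the gene start in kb, for RXRα (left) and input (right), over all protein-coding genes, the 170 transport genes and the 59 transport genes with co-localized binding. The RXRα signal peaked at the start in each set, at 12.6 reads per bin for the co-localized transport genes and 7.78 for all transport genes, while input stayed near or below 2.12.

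The windows of the transport genes held 285 RARα peaks and 193 RXRα regions. RXRα overlapped 81 of these RARα peaks (28.4%), compared to 33.1% of the RARα peaks in the windows of all genes. Of the RXRα regions 86 (44.6%) overlapped a RARα peak, compared to 39.4%. Within 1 kb of the start lay 32.6% of the RXRα regions and 60.4% of the RARα peaks, near the 35.1% and 61.9% in the windows of all genes. Of the 107 RXRα regions that had no RARα peak above the threshold, 54 overlapped a RARα peak with a lower score. Counting by gene at these thresholds, 86 genes had both kinds of binding and 58 had RARα peaks alone. A further 7 had RXRα regions alone and 19 had neither. Of the 86 genes with both, 27 had no co-localized peak in the window.

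Repeats of the hexamer that nuclear receptors bind were rare at these sites. Exact direct repeats with 0 to 5 bases between the hexamers (DR0 to DR5) and the inverted repeat with 1 base between them (IR1) were searched on both strands, in windows of 100 bp on either side of the center. The consensus AGGTCA was one of the hexamers allowed in each place of a repeat. The next was AGTTCA, which is frequent in natural retinoid elements. GGGTCA was allowed as well, because it is common in sites of dimers with RXRα. The last of the hexamers that were searched was GGTTCA. A repeat was present at 9 of the 193 RXRα regions of transport genes (4.66%), compared to 3.9% of all RXRα regions in gene windows, and at 5 of the 285 RARα summits (1.75%), compared to 0.724%. In windows of 50 bp these counts were 7 (3.63%, compared to 2.46%) and 1 (0.351%, compared to 0.298%). The 9 RXRα regions are shown because they place a receptor repeat beside a measured region within 10 kb of a named gene start. The hexamers are in capitals. The sites of Copg, Rab6, Sec11a, Vps25, Snx7, Rab3il1 and Vps52 are printed with 20 bp on either side.
Copg, DR5, chr6:87829195-87829251, plus strand, upstream at -8585 bp: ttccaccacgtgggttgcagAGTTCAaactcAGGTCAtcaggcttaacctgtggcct
Rab6, DR1, chr7:107763288-107763340, plus strand, intron: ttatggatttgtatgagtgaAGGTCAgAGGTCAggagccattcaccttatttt
Sec11a, DR1, chr7:88096028-88096080, minus strand, upstream: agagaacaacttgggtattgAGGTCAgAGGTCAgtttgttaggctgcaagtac
Vps25, DR1, chr11:101106465-101106517, plus strand, upstream: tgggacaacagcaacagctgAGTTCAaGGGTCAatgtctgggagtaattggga
Snx7, DR3, chr3:117565006-117565060, minus strand, intron: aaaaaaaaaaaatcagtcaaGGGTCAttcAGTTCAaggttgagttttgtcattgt
Rab3il1, DR0, chr19:10077628-10077679, minus strand, intron: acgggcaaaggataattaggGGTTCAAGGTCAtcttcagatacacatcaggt
Vps52, IR1, chr17:34089807-34089859, plus strand, upstream and inside Rps18: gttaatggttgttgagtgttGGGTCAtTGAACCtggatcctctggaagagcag
Snx21, DR2, chr2:164616237-164616266, minus strand, noncoding exon: gacagctcAGGTCAtcGGGTCAtgacaagt
Snx17, overlapping DR1 repeats, chr5:31504344-31504373, minus strand, inside Zfp513: cgaggGGGTCAaAGGTCAgGGGTCAggggc
The RXRα regions of Snx21 and Snx17 also overlapped a RARα peak above the threshold, and the repeats lay 36 bp from the RARα summit in Snx21 and 45 and 52 bp in Snx17. The other 7 sites were at RXRα regions with no RARα peak above the threshold. The regions listed for Rab6, Vps25, Vps52 and Snx17 lay nearest to the starts of Mrpl48, Ramp2, B3galt4 and Zfp513.

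By family, RARα peaks were present at 28 of 30 Vps genes (93.3%), 25 of 30 Snx genes (83.3%), 27 of 29 Sec genes (93.1%), 52 of 67 Rab genes (77.6%), 6 of 8 Cop genes and 6 of 6 Arf genes. RXRα regions were present at 14 Vps (46.7%), 18 Snx (60%), 17 Sec (58.6%), 36 Rab (53.7%), 5 Cop and 3 Arf genes. Over all genes the shares were 52.3% for RARα and 39.9% for RXRα. Co-localized peaks were present at 12 of 29 Sec genes (41.4%), 11 Vps genes (36.7%), 11 Snx genes (36.7%), 21 Rab genes (31.3%), 3 Cop genes and 1 Arf gene. Over the bound genes, the Sec genes had a median RARα score of 64 and a median RXRα ratio of 64.7, whereas the Vps genes had 47 and 30.9. The 6 Arf genes had the highest median RARα score, 76, and a median RXRα ratio of 23.2 over 3 genes. Each family lay above the 23.6% of all genes that had a co-localized peak, except the Arf genes (16.7%). The order of the families rests on few genes and changed with several settings that are given at the end.

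**Figure D2:**
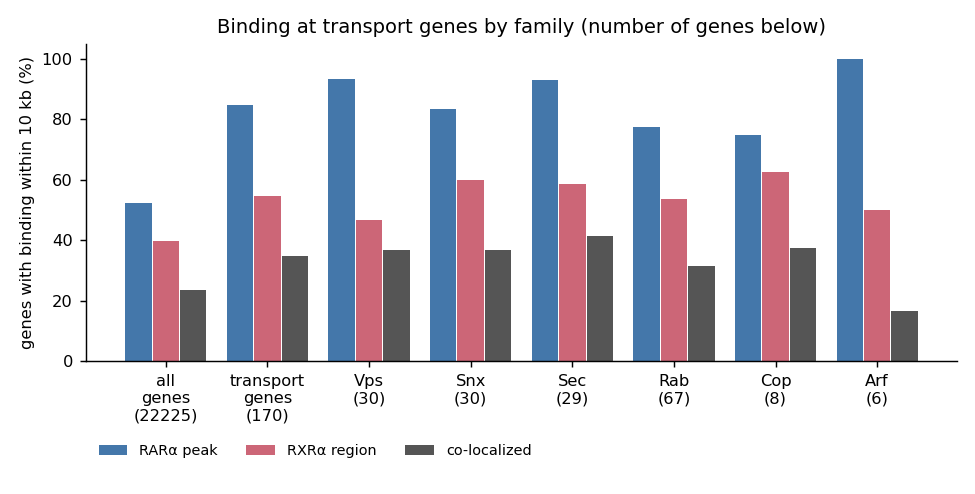
Share of genes with a RARα peak, an RXRα region and a co-localized RARα peak within 10 kb of the gene start (vertical axis, percent), for all protein-coding genes, the 170 transport genes and the 6 families, with the number of genes below each group. The RARα share was above the 52.3% of all genes in each family, while the co-localized share ran from 16.7% (Arf) to 41.4% (Sec).

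RXRα regions were present at 9 of 11 genes of the COPII coat (81.8%) and 5 of 8 of the COPI coat (62.5%), compared to 39.9% of all genes. These lists are short. Of the 11 COPII genes, 10 (90.9%) had a RARα peak, compared to 52.3% of all genes. A co-localized peak was present at 6 (54.5%), compared to 23.6%, namely Sec16a, Sec24a, Sec24c, Sec24d, Sec31a and Sec31b. The co-localized region of Sec31b, at -9534 bp, lay inside Ndufb8 and nearest to the start of that gene. Sec31a (ENSMUSG00000035325.8, chromosome 5, start at 100845253 on the minus strand), which encodes the outer coat protein, had 3 RARα peaks with scores of 70, 65 and 22 and 3 RXRα regions. Its strongest RXRα bin, at -235 bp, held 96 RXRα and 1 input read, a ratio of 96.0 (95% exact binomial interval 16.8 to 3831, counting error only), inside the RARα peak with a score of 70. The other RARα peak at the start, with a score of 65, held no RXRα region, so that both receptors met upstream of the start and not over it.

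The cargo-binding Sec24 proteins differed from one another. Sec24c had 5 RARα peaks, 3 RXRα regions and 3 co-localized peaks, with 41 RXRα reads and 0 input reads in the strongest bin, at 3785 bp in an intron. Sec24a had 5 RARα peaks and 7 RXRα regions, the most RXRα regions among the transport genes together with Snx29, and 3 of the 7 regions were nearest to the start of the neighboring Sar1b, which encodes the GTPase that starts COPII assembly. Sec24d had 165.0 RXRα reads and 16.6 input reads within 1 kb of its start, a ratio of 9.43 with 1 read added to each. Sec24b had a RARα score of only 28 and no co-localized peak. Sec16b, which encodes the shorter Sec16 scaffold, was the exception without a RARα peak, although it had 3 RXRα regions, the strongest at 1269 bp with 39 RXRα reads and 0 input reads. Sec13 (RARα score 48) and Sec23b (score 71) had RARα peaks at their starts and no RXRα region, and Sec23a (score 91) had 2 RXRα regions and no co-localized peak. The weaker of its regions, with 14 RXRα reads and 0 input reads at 380 bp, touched a RARα peak with a score of 88 by less than the 25% required.

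Sec23ip, which encodes a COPII binding protein, had a ratio of 78.0 from 78 RXRα reads and 1 input read (interval 13.6 to 3120), at -4400 bp. This region and the RARα peak that overlapped it (score 29) lay inside the neighboring gene Mcmbp and nearest to its start, while the RARα peak at the start of Sec23ip itself (score 68) had no RXRα region. The 12 genes of the COPII GTPase and cargo receptors outside the 6 families had co-localized peaks at 7 (58.3%, compared to 23.6% of all genes). These were Sar1a, Sar1b, Preb, Mcfd2, Tmed2, Kdelr1 and Kdelr2, while Lman1 and Kdelr3 lacked a RARα peak. The start of Sar1b (51577189 on chromosome 11) adjoins that of Sec24a (51577136), so shared peaks were counted for both genes and in both lists.

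The COPI coat had RARα peaks at 6 of 8 genes (75%), RXRα regions at 5 (62.5%) and co-localized peaks at 3 (37.5%). Over all genes these shares were 52.3%, 39.9% and 23.6%. Copa (α subunit) had a RARα score of 69 and a co-localized region with 16 RXRα reads and 0 input reads. This was at least 5.33-fold with input set to 3 reads and the RXRα count taken as exact, here and below. The region lay nearest to the start of the adjoining Ncstn. Copb1 (β subunit) had a score of 47 and a co-localized region over its start, with 22 RXRα reads and 0 input reads, or at least 7.33-fold. Both co-localized regions were weak and lay at the start. Copz1 (ζ1 subunit) had the highest RARα score of the family, 81 at 23 bp, without RXRα, and its co-localized regions were intronic, the stronger with 51 RXRα reads and 1 input read at 8450 bp (ratio 51.0, interval 8.75 to 2053).

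Copg (γ1 subunit, ENSMUSG00000030058.10, chromosome 6, start at 87837808) had the strongest RXRα region of the family, and it was not shared with RARα. The region, from 87829121 to 87829344, held 77 RXRα and 0 input reads, a ratio of 127.8 or at least 25.7-fold with input set to 3 reads, and it contains the DR5 printed above. No RARα peak of any score overlapped it, and the RARα peak at the start of Copg had a score of 52. Of all 8865 genes with an RXRα region, 468 had a higher ratio. Copb2 (β' subunit, score 42) and Cope (ε subunit, score 41) had RARα peaks at the start and no RXRα region, with 7 and 6 RXRα reads in their strongest bins. The paralogs differed from their partners, as Copz2 (ζ2) had an RXRα region in an intron with 23 RXRα reads and 0 input reads but no RARα peak, and Copg2 (γ2) had neither.

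All 6 Arf genes, whose GTPases recruit COPI and clathrin adaptors, had RARα peaks. Their highest scores were 84 at Arf5, 81 at Arf1, 79 at Arf4, 73 at Arf6, 63 at Arf2 and 22 at Arf3. The Arf5 peak with the score of 84 lay at -1645 bp, inside the neighboring Gcc1. The peak at the start of Arf5, at -85 bp, had a score of 29. Fewer of the Arf genes had an RXRα region at the threshold used. Arf4 was the gene with co-localized binding, with 25 RXRα reads and 1 input read at -280 bp (ratio 25, interval 4.09 to 1026). At Arf1 and Arf6 the RXRα regions held 14 and 13 RXRα reads and 0 input reads, close to the 13 reads that a region needed, and neither touched a RARα peak. The strongest bins of Arf2, Arf3 and Arf5 held 11, 8 and 11 RXRα reads with 1, 0 and 0 input reads, which passed no threshold. At this depth a weaker RXRα signal at these genes was not detectable as a region.

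Genes of translocation into the endoplasmic reticulum were bound by RARα at the start. All 6 translocon genes had a RARα peak, with a median score of 78.5, 2 (33.3%) had an RXRα region, compared to 39.9% of all genes, and 1 (16.7%) had a co-localized peak, compared to 23.6%. That gene was Sec61a2 (pore subunit, ENSMUSG00000025816.8, chromosome 2, start at 5816478 on the minus strand), which had the highest RARα score of the Sec family, 106 at 113 bp, over a region with 25 RXRα reads and 0 input reads, or at least 8.33-fold. Its paralog Sec61a1 had a score of 93 and no RXRα region, with 15 RXRα reads and 1 input read in its strongest bin. Sec61g (score 97), Sec61b (score 53) and Sec62 (score 64) also lacked an RXRα region. Sec63, which recruits the chaperone BiP to the pore, had 5 RXRα regions that no RARα peak above the threshold overlapped.

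Among the Sec14-like genes, whose products bind lipids, Sec14l2 and Sec14l4 stood high in RXRα. Sec14l2 encodes a protein that binds tocopherol and stimulates squalene epoxidase. Sec14l2 (ENSMUSG00000003585.7, chromosome 11, start at 4023418 on the minus strand) carried 4 RARα peaks with scores from 26 to 76, 6 RXRα regions and 3 co-localized peaks. Its region with the highest ratio, at 1018 bp in an intron, held 59 RXRα reads and 0 input reads (at least 19.7-fold) and overlapped no RARα peak, whereas a co-localized region at 5802 bp held more reads, 149 for RXRα and 3 for input (ratio 49.7, interval 16.7 to 243.6). Sec14l4 (chromosome 11, start at 3931465) had 5 RXRα regions, and 200.2 RXRα reads and 18.8 input reads lay within 1 kb of its start, a ratio of 10.2 with 1 read added to each. The region over its start held 42 RXRα reads and 0 input reads and lay under a RARα peak with a score of 45. The median CpG ratio of the 5 Sec14-like genes was 0.233, compared to 0.737 over the 170 transport genes. Sec14l3, which lies in the same gene cluster, had neither receptor.

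**Figure D3:**
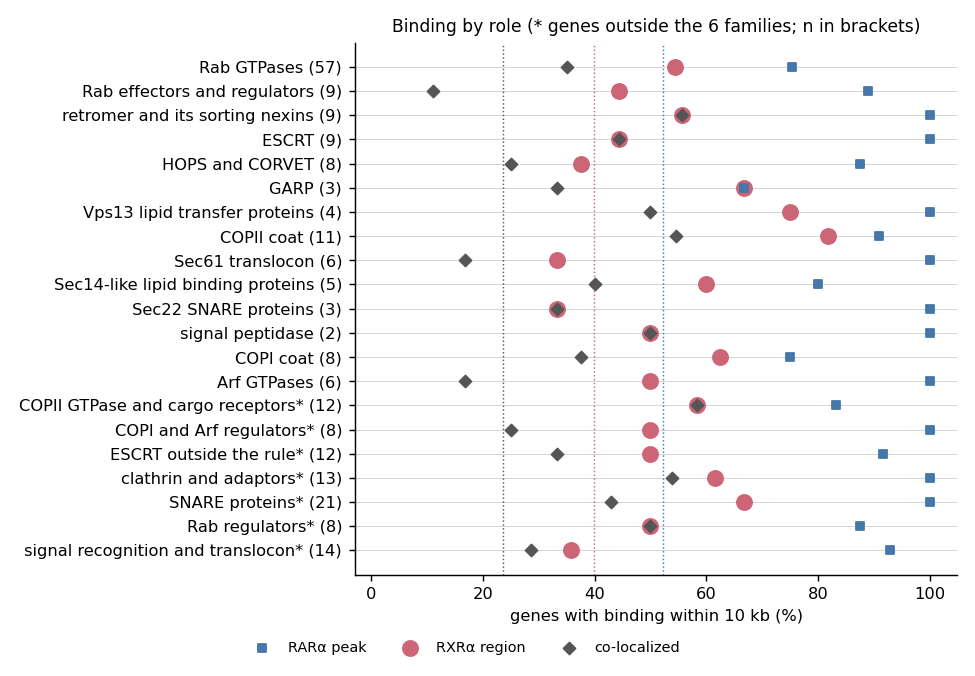
Share of genes with a RARα peak (squares), an RXRα region (circles) and a co-localized RARα peak (diamonds) within 10 kb of the start (horizontal axis, percent) for each list of genes with a common role, with the number of genes in brackets, a star for lists outside the 6 families and dotted lines in the same colors for all protein-coding genes. RARα lay right of its 52.3% line in every list, whereas co-localized shares ran from 11.1% (Rab effectors and regulators) to 58.3% (COPII GTPase and cargo receptors).

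The Rab GTPases, as the largest group, had RARα peaks at 43 of 57 genes (75.4%), RXRα regions at 31 (54.4%) and co-localized peaks at 20 (35.1%). Over all genes these shares were 52.3%, 39.9% and 23.6%. Among the 20 were Rabs of the early secretory pathway (Rab1, Rab1b, Rab2a, Rab6, Rab30, Rab43), of endosomes and recycling (Rab4a, Rab4b, Rab5a, Rab11a, Rab21, Rab22a) and of exocytosis (Rab3d, Rab8a, Rab10). The 14 without a RARα peak were Rab3c, Rab6b, Rab7l1, Rab9b, Rab15, Rab27b, Rab28, Rab36, Rab37, Rab38, Rab39, Rab39b, Rab40b and Rab44. Rab3c is known from neurons and Rab38 from melanocytes. Rab3a, a Rab of synaptic vesicles, did have a RARα peak at its start, with a score of 55 at -23 bp. Whether the list follows tissue was not tested. The paralogs split in some cases, since Rab6 and Rab5a had co-localized peaks and Rab6b and Rab5c had none. Rab3d also had a co-localized peak and Rab3c had none. The co-localized peak of Rab3d, at -8239 bp, lay inside Tmem205 and nearest to the start of that gene.

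Rab43 (ENSMUSG00000030055.9, chromosome 6, start at 87762158 on the minus strand), a Rab of the Golgi, had the highest RARα score of all transport genes, 171 at 383 bp, and 166 of the 11624 RARα genes had a higher one. It had 5 RARα peaks and 4 RXRα regions inside the gene, with co-localization at 4 of the peaks. The highest RARα score and the highest RXRα ratio were at different places in the gene. The RARα peak with the score of 171 overlapped a region with only 14 RXRα reads and 0 input reads, while the RARα peak with a score of 57, at 2363 bp, overlapped the region with the highest ratio, 103 RXRα reads and 2 input reads (ratio 51.5, interval 13.9 to 430.9). The most RXRα reads in the window, 149 with 10 input reads in a bin at 3453 bp, lay under a RARα peak with a score of 24. With that input the bin stayed below the ratio of 20, and the region called there, at 3566 bp on the flank, held 58 RXRα reads and 2 input reads.

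Rab20, a Rab of phagosomes and the endocytic pathway, had the highest ratio in a co-localized region. That region (chromosome 8, 11473057 to 11473376), at 5422 bp in the intron, held 99 RXRα reads and 1 input read (ratio 99.0, interval 17.4 to 3949) under a RARα peak with a score of 34. Rab20 had 5 RARα peaks, none with a score above 50. Rab6, which acts in transport from endosomes to the Golgi and within it, had a co-localized region over its start with 45 RXRα reads and 0 input reads (at least 15.0-fold) under RARα peaks with scores of 76 and 67. The strongest RXRα region in the window of Rab6, at 7404 bp with 60 RXRα reads and 0 input reads, holds the DR1 printed above. It had no RARα peak and lay in an intron of Rab6, nearest to the start of Mrpl48. Rab33a, on chromosome X, had a co-localized region with 54 RXRα reads and 0 input reads, but it lay nearest to Aifm1 and 0 RXRα reads fell within 1 kb of the start of Rab33a.

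**Figure D4:**
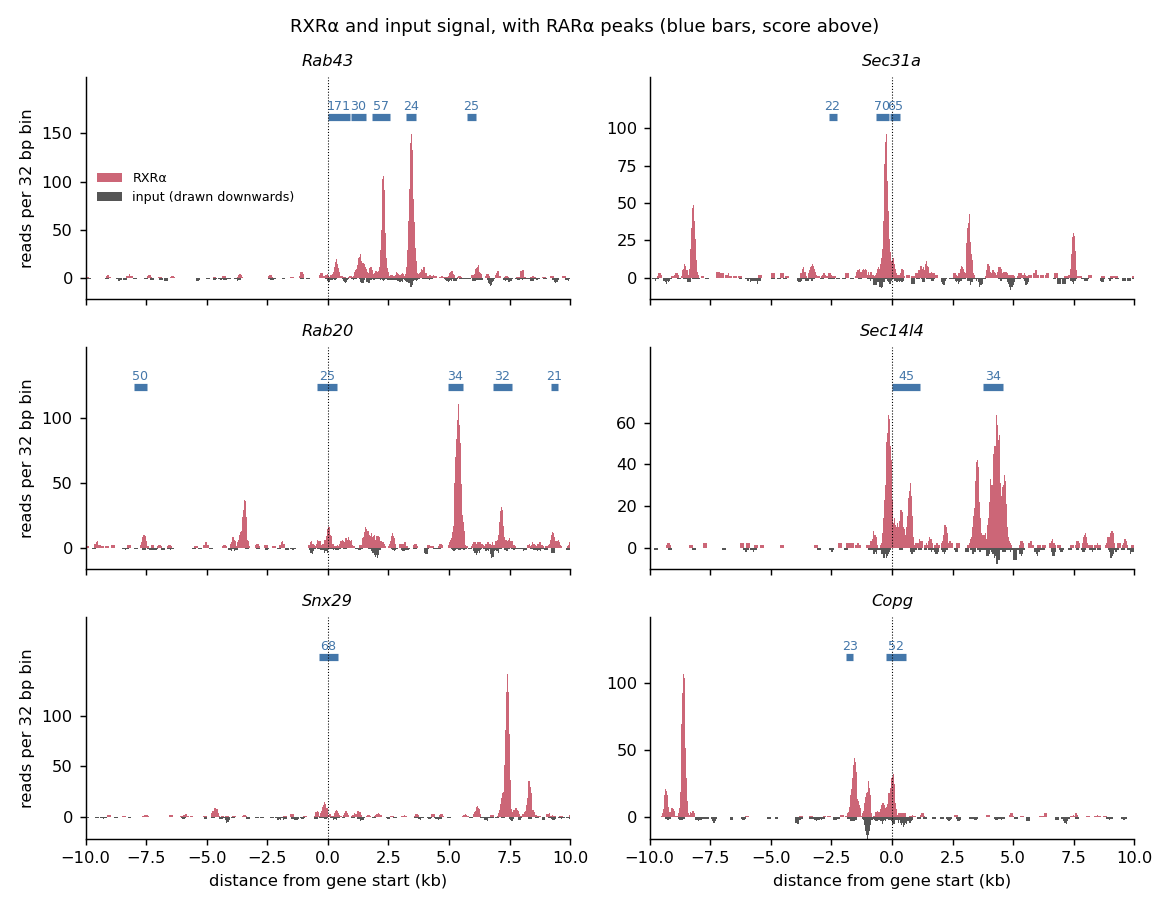
RXRα signal (red, upward) and input signal (gray, downward) in reads per bin of 32 bp against the distance from the gene start in kb, in the direction of transcription, with RARα peaks above a score of 20 as blue bars and their scores. RARα peaks lie over the strongest RXRα region in Sec31a, Rab20 and Sec14l4, whereas at Snx29 and Copg the strongest RXRα region has no RARα peak above the threshold, and in Rab43 the highest RARα score lies over a weak RXRα region.

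Strong RXRα without RARα was seen at other Rab genes. Rab5c, a Rab of early endosomes, had the highest RXRα ratio of the family at -9063 bp, inside Kcnh4, where the strongest bin held 126 RXRα reads and 0 input reads (ratio 209.1, at least 42.0-fold) and no RARα peak of any score overlapped it. Of all genes with an RXRα region, 71 had a higher ratio. Of the 7 genes with an RXRα region and no RARα peak, the 5 with the highest ratios are given. Rab44 had 96 RXRα reads and 1 input read at 1439 bp, Rab6b had 43 and 0 at 6204 bp, and Rab36 had 29 and 0 at -7147 bp. In the same group, Snx10 had 65 RXRα reads and 1 input read at 9748 bp, and Sec16b is described above. Except for Rab36, whose strongest region lay in Rtdr1, the strongest regions of these 5 genes were nearest to the gene itself.

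At most transport genes with the highest RARα scores, RXRα did not co-localize with the highest peak. The 9 transport genes with a score of at least 100, which were picked after their values were seen, were Rab43 (171), Rab26 (160), Rab42-ps (159), Rab3d (141), Snx18 (134), Snx22 (110), Vps52 (108), Sec61a2 (106) and Rab33b (104). They made up 6.25% of the RARα transport genes, compared to 9.68% of all RARα genes. Of the 9 genes, 7 (77.8%) had an RXRα region, compared to 85.7% of all genes with a score of at least 100, and at 4 of them, Rab43, Rab3d, Snx18 and Sec61a2, the highest ratio was above the median of 38.2. RXRα co-localized with the highest peak at 2 of the 9 (22.2%), Rab43 and Sec61a2, compared to 27.1% of the 144 RARα transport genes and to 46.8% of all genes with such a score. The highest peaks of Rab3d and Snx22 lay nearest to the starts of Tmem205 and Ppib. The lowest RXRα ratio among the transport genes with a RARα peak was that of Rab23, with 4 RXRα reads and 0 input reads in its strongest bin.

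**Figure D5:**
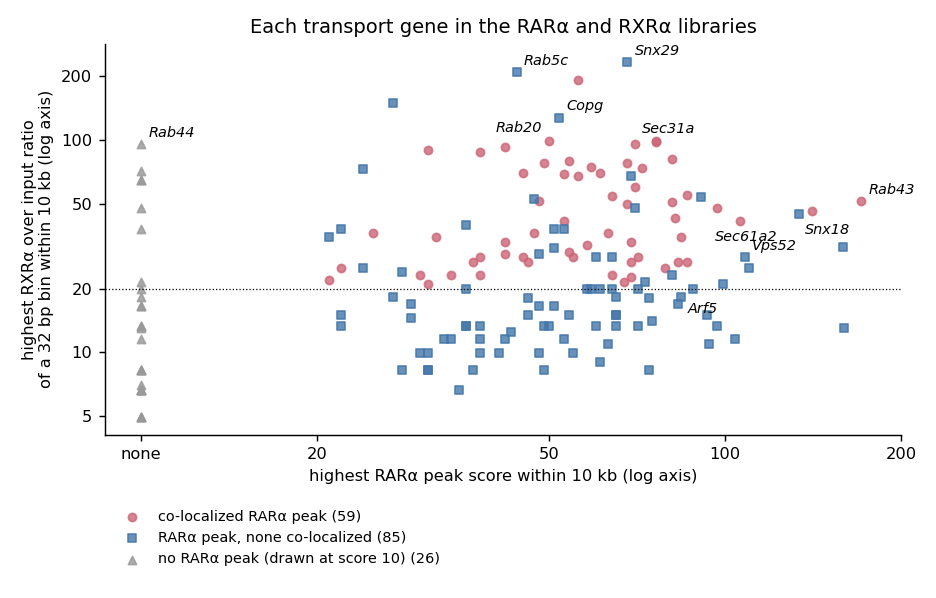
Highest RARα score (horizontal axis, log scale) against the highest RXRα ratio of a 32 bp bin within 10 kb of the start (vertical axis, log scale, RXRα over the larger of local and mean input) for each of the 170 transport genes, with the 26 genes without a RARα peak at the left and the RXRα threshold of 20 as a dotted line. The genes with the highest RXRα ratios, Snx29 and Rab5c, have RARα scores of 68 and 44, and the gene with the highest RARα score, Rab43, has a ratio of 51.5.

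Proteins that work with the Rabs had RARα peaks at most genes, and the lists inside and outside the families differed in co-localization. Of 9 Rab effectors and regulators, such as the Rab11 family interacting proteins and the Rab3 GTPase activating proteins, 8 had a RARα peak and 4 (44.4%) an RXRα region, and 1 (11.1%), Rab11fip5, had a co-localized peak. Over all genes the shares with a RARα peak, an RXRα region and a co-localized peak were 52.3%, 39.9% and 23.6%. Rab11fip4 had no RARα peak. Of 8 Rab regulators outside the families, among them Gdi2, Rabggta, Rabggtb and Rabif, 4 (50%) had an RXRα region and the same number a co-localized peak, and Chm had no RARα peak.

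The endosomal complexes were bound by RARα nearly throughout. Retromer, which returns cargo from endosomes to the Golgi, and its sorting nexins had RARα peaks within 1 kb of the start at 9 of 9 genes, compared to 41% of all genes. Co-localized peaks were present at 5 (55.6%, compared to 23.6% of all genes), namely Vps29, Snx1, Snx3, Snx5 and Snx6. They were absent at Vps26a, Vps26b, Vps35 and Snx2. The RXRα regions of this list were weak, with a median ratio of 26.5, and the strongest, at -30 bp of Snx6, held 31 RXRα reads and 0 input reads. A divergent start within 1 kb was present at 5 of these 9 genes (55.6%), compared to 10.8% of all genes, and peaks at such starts cannot be assigned to 1 of the 2 genes by position.

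ESCRT subunits, which bud vesicles into multivesicular bodies, had a RARα peak at 9 of 9 genes, compared to 52.3% of all genes. A co-localized one was present at 4 (44.4%, compared to 23.6%), namely Vps25, Vps28, Vps37b and Vps4a. The co-localized region of Vps25, at 6819 bp, lay downstream of the gene and nearest to the start of Wnk4. It held 13 RXRα reads and 0 input reads, just enough to pass. Vps28 (ESCRT-I, ENSMUSG00000062381.3, chromosome 15, start at 76456457 on the minus strand) had the highest RXRα ratio of the Vps family, from 49 RXRα reads and 0 input reads (at least 16.3-fold) at 9977 bp, in a region that overlapped a RARα peak with a score of 26. That region lay in Slc39a4. At the start of Vps28 itself, a region at -183 bp held 30 RXRα reads and 0 input reads (at least 9.999-fold) under a RARα peak with a score of 46, and it lay inside the adjoining gene Tonsl. Vps37b had 139 RXRα reads and 2 input reads at 6237 bp in an intron (ratio 69.5, interval 18.9 to 579.5).

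HOPS and CORVET, which tether endosomes and lysosomes before they fuse, had RARα peaks at 7 of 8 genes (87.5%, compared to 52.3% of all genes). The exception was Vps39. Co-localized peaks were present at 2 (25%, near the 23.6% of all genes). These were Vps18 (RARα score 84, over 21 RXRα reads and 0 input reads) and Vps33a (score 54). At Vps33a the co-localized region held 13 RXRα reads and 0 input reads, just enough to pass, and a region at 8656 bp without RARα held 18 and 0. GARP, which tethers vesicles from endosomes at the Golgi, had 2 of 3 genes with a RARα peak. Its subunit Vps52 (chromosome 17, start at 34092757) had the highest RARα score of the Vps family, 108 at -142 bp in a region shared with Rps18, without RXRα at that place, and Vps54 had neither. The RXRα region of Vps52, with 17 RXRα reads and 0 input reads, was nearest to B3galt4 and holds the IR1 printed above. The lipid transfer proteins of the Vps13 family had RARα scores of at most 49, with co-localized peaks at Vps13b and Vps13d.

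Among the other sorting nexins, Snx29 and Snx18 marked the extremes. Snx29 (ENSMUSG00000079738.2, chromosome 16, start at 11322985) had the highest RXRα ratio of all transport genes, 234.0, from 141 RXRα reads and 0 input reads (at least 47.0-fold) in an intron at 7319 bp, and 37 of all genes with an RXRα region had a higher one. The RARα peak that overlapped this region had a score of 18, just under the threshold of 20, so that Snx29 was not counted as co-localized, and its RARα peak at the start had a score of 68. Snx18, which acts in endocytosis and autophagosome formation, had a RARα score of 134 at -133 bp and no RXRα region there. Its strongest RXRα region, at 2276 bp, held 27 RXRα reads and 0 input reads. Snx21, a sorting nexin of early endosomes, had 2 co-localized peaks, and the stronger RXRα region, with 42 RXRα reads and 0 input reads (at least 14.0-fold), holds the DR2 printed above.

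Neither receptor was called at 19 genes, which were Copg2, Rab11fip4, Rab15, Rab27b, Rab28, Rab37, Rab38, Rab39, Rab39b, Rab3c, Rab40b, Rab7l1, Rab9b, Sec14l3, Snx20, Snx31, Snx9, Vps39 and Vps54. A call of a region needed 13 RXRα reads in a bin, so weaker binding at these genes was not detectable.

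Trafficking genes outside the 6 families gave like counts. Of 88 such genes, 83 (94.3%) had a RARα peak, 48 (54.5%) an RXRα region and 37 (42%) a co-localized peak. Over all protein-coding genes the shares were 52.3%, 39.9% and 23.6%. Clathrin and its adaptors had RARα peaks at 13 of 13 genes and co-localized peaks at 7, among them Cltc, Ap1b1 and Ap2m1. SNARE proteins, which fuse vesicles with their targets, had RARα peaks at 21 of 21 genes and co-localized peaks at 9, among them Vamp2, Vamp3, Vamp8 and Stx18. Signal recognition and translocon genes had RARα peaks at 13 of 14 genes (not Srp54a) and co-localized peaks at 4 (28.6%). The other ESCRT genes had RARα peaks at 11 of 12 (not Chmp4b) and co-localized peaks at 4, and the COPI and Arf regulators had RARα peaks at 8 of 8 and co-localized peaks at 2.

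Some promoter elements were more frequent in the transport genes than in all genes. Promoters were read from 250 bp before to 50 bp after the start, and exact matches on either strand were counted. The E-box TCACGTGA, which lies in promoters of lysosomal genes, was present in 10 of 170 promoters (5.88%), compared to 1.09% of all promoters and 1.6% of the promoters of RARα genes. These were Vps11, Vps16, Vps26a, Vps33a, Rab5a, Rab21, Rab24, Sec23ip, Sec62 and Snx2, of which Vps11, Vps16 and Vps33a encode core subunits of HOPS and CORVET. The core TGACGTGG of the element of the unfolded protein response was present in 6 promoters (3.53%), compared to 0.729% of all promoters and 0.86% of those of RARα genes. These were Arf1, Copb1, Copb2, Sec16b, Sec23a and Sec24d. All 6 belong to the COPI and COPII pathway, and the core shares the letters TGACGT with the cyclic AMP element TGACGTCA. That element was present in 6 promoters (3.53%), compared to 2.32% of all promoters and 3.05% of those of RARα genes. The ETS element CCGGAAGT was present in 20 promoters (11.8%), compared to 4.72% of all promoters and 7.73% of those of RARα genes. The YY1 element AAGATGGCG was present in 8 (4.71%), compared to 1.84% and 2.81%. Each of these elements contains the letters CG, and starts of transport genes were richer in CpG. The shares were not compared at equal CpG content.

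The E-boxes lay within RARα peaks at 7 of the 9 genes that were checked for this, Snx2 being left out. They are shown for the genes in which the E-box, in capitals, was inside a RARα peak and upstream of the start, with 11 bp on either side in the direction of the gene.
Vps16, chr2:130250026-130250055, plus strand, 38 bp before the start, 45 bp from the RARα summit (score 38): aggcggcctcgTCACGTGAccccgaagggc
Vps33a, chr5:124023035-124023064, minus strand, 29 bp before the start, 64 bp from the summit (score 54): agcgactcggaTCACGTGAacgtcccgtca
Rab21, chr10:114752660-114752689, minus strand, 31 bp before the start, 21 bp from the summit (score 82): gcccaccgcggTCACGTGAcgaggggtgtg
Rab5a, chr17:53618452-53618481, plus strand, 96 bp before the start, 179 bp from the summit (score 71): acccggggatgTCACGTGActtcggccccg
Sec23ip, chr7:135888319-135888348, plus strand, 54 bp before the start, 162 bp from the summit (score 68): gaccgaggctgTCACGTGAtaggcttgggt
At Vps11 and Rab24, whose E-boxes are not printed, the summit lay 35 and 39 bp away. A RARα summit was within 64 bp of the E-box at 5 of the 7 genes, the exceptions being Rab5a and Sec23ip. These E-boxes were taken inside RARα peaks near the start, so closeness to a summit followed in part from that choice. It was not compared with other positions. A match to letters is not a measured site, and binding by the factors of these elements was not measured.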

How the data were processed

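Binding was measured by ChIP-seq in 1 library per antibody and 1 input library. The authors aligned the reads with Bowtie after CASAVA 1.4 and called RARα peaks with MACS. The RXRα and input files hold a signal as deposited by the authors, a whole number of extended reads over each 32 bp bin, where 1 read covers 5 bins. For RARα the authors deposited a score per peak, whose scale the list does not give, and a false discovery rate in percent, which was not used as a filter. The methods name one genome build for alignment and another for annotation. The track headers and labels give mm9, and 0 RARα peaks passed a chromosome end of NCBI37, so that sequence and genes of NCBI37/mm9 were used.

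The RXRα and input tracks were scaled to the same mean, and bins that passed the threshold within 200 bp of each other were joined. The RXRα and input tracks each hold about 10 M reads. For RXRα the paper gives more uniquely mapped reads than its track holds. For RARα the paper gives a higher count still, but the RARα list holds no read counts. Any gene start within 10 kb was given a peak, so 1 peak can count for several genes. Genes are not replicates and there was 1 library per antibody, so no test was made, and counts are set beside those over all protein-coding genes. Intervals are exact (Clopper-Pearson) at 95%. Where input was 0, the fold was computed with input set to 3 reads and the RXRα count taken as exact. Such a floor leaves out the counting error of RXRα, so a limit with both errors would be lower. PCR reads are not independent molecules, and intervals cover counting error only.

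The genes named were, in each family, those with the highest RARα score and RXRα ratio, the 8 with the highest co-localized RXRα ratio, all Cop and Arf genes, the 5 with the highest RXRα ratio without a RARα peak, any with RARα peaks and a ratio below 5 (0 were found), those with neither, and exceptions in a role list. Other genes named with values were chosen after these were seen. The members, role lists and motifs were chosen with earlier results of these data known. Region calling and overlap were checked on simulated tracks. Alternatives changed the score, ratio, overlap, window, assignment, scaling, joining and motif window. Python 3.11.15 was used with numpy 2.4.6, scipy 1.17.1, pysam 0.24.0, pandas 2.3.3 and matplotlib 3.10.9.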

Additional observations from a re-analysis of the deposited data

How the results depend on the processing

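The settings counted here include the main one. The share of transport genes was above that of all genes in all 10 settings for RARα. It was also above in all 17 for co-localization and in 10 of 11 for RXRα. The exception was the restriction to CpG-rich starts, which was added after seeing the data. At those starts the co-localized shares were nearly equal, with 35.7% and 34.6%. The shares themselves moved. With RARα scores above 50, 82 transport genes had a RARα peak and 25 a co-localized one, and 30.5% of the RARα genes were co-localized. With all deposited RARα peaks the last value was 50.6%, above the 46.4% of all genes. RXRα at 10 times input gave 145 genes with a region, 111 co-localized genes and 77.1% of RARα genes (74.6% of all RARα genes), and these were the settings in which transport genes were not below the background in this share. RXRα at 30 times input gave 61, 33 and 22.9%, and mean input alone gave 96 co-localized genes and 66.7%. Within 1 kb, 53 genes had an RXRα region. The median highest RXRα ratio of 23.2 per gene fell to 13.0 with 1 read added to local input, and the median ratio within 1 kb of 2.40 fell to 1.35 within 10 kb. Between the highest and the lowest of the families with 20 genes or more, the co-localized share differed by 10 percentage points (Sec and Rab). It differed by 15.3 with all RARα peaks (Sec and Vps), 16.7 at 10 times input (Vps and Snx), 21.1 at 30 times input (Sec and Vps), 25.9 with mean input alone (Sec and Snx), 9.45 within 1 kb (Snx and Rab) and 8.16 with any transcript start (Sec and Vps), so the order of the families is not stable. The cause was not tested. Of 192 counts for single families, 154 stayed within 1.5 times, and of 510 counts of co-localized peaks at named genes, 435 did. With only the nearest gene counted, 135, 83 and 49 transport genes had RARα, RXRα and co-localized binding. No paired analysis was possible because each antibody has 1 library.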

Other observations

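Sorting nexins and Rabs outside the description above also had strong RXRα regions, which were singled out after their values were seen. Snx33 had a region at -1230 bp with 116 RXRα reads and 0 input reads (at least 38.7-fold), which overlapped a RARα peak with a score of 15 only, while a weaker region at 162 bp, with 22 RXRα reads and 0 input reads, lay under a RARα peak with a score of 56. Rab9, a Rab of late endosomes on chromosome X, had the highest RXRα over input ratio within 1 kb of the start among the 170 genes, 14.4 from 145.8 RXRα reads and 9.2 input reads, from an intronic region at 903 bp with 90 RXRα reads and 0 input reads (at least 29.998-fold). The RARα peak over that region had a score of 17, and that at the start of Rab9 a score of 27. Rab3a, a Rab of synaptic vesicles, had the most RARα peaks within 10 kb of the start, 8, and no RXRα region. Of the 8 peaks, 4 were nearest to the start of Rab3a and the others were nearest to Mpv17l2 or Ifi30. Rab20, Rab43 and Sec24c each had 5 peaks nearest to their own start.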
